A study of Saccharomyces cerevisiae with 44 samples.

Results

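SRL1, MIP6, BSC1, YBR296C-A (also named TYC1) and YOL114C (also named PTH4) are mRNAs of the budding yeast Saccharomyces cerevisiae, followed here through every comparison of a sequencing series on quiescence. They are 5 of the 6600 S. cerevisiae genes in the mRNA count table. They were selected as repeated large rises when the gene for Rrp6 is deleted, so every comparison of the deletion with wild-type cells is given below as a description with no test. The selection had no numeric threshold. All 5 passed the filter on low counts in each of the 4 sets of libraries fitted, YBR296C-A in the shift set through the deletion libraries, since its wild-type groups there had 1 to 7 reads, and in the Ovation set through the quiescent nascent libraries alone. Only YBR296C-A and YOL114C were above wild-type in all 7 deletion comparisons. SRL1 was above in 5 and below in 1, MIP6 above in 4 and below in 1, and BSC1 above in 5 and below in 2, so the description as mRNAs that accumulate without Rrp6 holds for these 3 in part of the comparisons.

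Rrp6 is a 3′ to 5′ exonuclease attached to the nuclear form of the RNA exosome, the complex that trims and destroys RNA from its 3′ end. In yeast the Nrd1-Nab3-Sen1 complex, in which Nab3 is an RNA-binding protein, ends transcription of many short noncoding RNAs and hands them to the exosome, helped by the TRAMP complex, which adds short poly(A) tails. Cryptic unstable transcripts (CUTs) are seen when Rrp6 is absent, and Nrd1-unterminated transcripts (NUTs) are long RNAs seen when this termination fails, while stable unannotated transcripts (SUTs) are also seen in normal cells. Some mRNAs are held low by the same nuclear route.

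All cells were of strain W303, and the 44 samples formed 22 groups of 2. RNA-seq of total RNA gave the steady-state level, and 4tU-seq, which reads RNA that took up 4-thiouracil, the nascent RNA. The genotypes were wild-type, a deletion of RRP6 (rrp6 deletion), Nab3-AID, whose Nab3 carries a degron that answers to auxin, and OsTIR-AID, the control that received the same auxin. The cells were quiescent, arrested in G1, or sampled around the diauxic shift, the moment at which glucose runs out.

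Quiescent cells came from YEP cultures with 2% glucose and were isolated by density gradient. The rrp6 deletion and its wild-type control were taken at day 8, in both RNA fractions. Nab3-AID and OsTIR-AID cells were taken at day 7, also in both fractions, with auxin (IAA) at 1 mg/ml in all 8 of these samples. The length of auxin treatment was not given in the sources used here. G1 cells were arrested with α factor at 5 µg/ml. Steady-state RNA of rrp6 deletion and wild-type cells was also taken in G1 and at 2 h before and 2, 24 and 48 h after the shift. A further 8 libraries from wild-type cells, prepared with the Ovation SoLo kit, held G1 and day 7 quiescent cells in both fractions, and the other 36 libraries were made with the Universal Plus kit. The deletion strain grew without Rrp6 throughout, whereas Nab3-AID cells received auxin to deplete Nab3, and the protein itself was not measured. The replicates of a group carry different strain numbers, but nothing in the labels says that their cultures were separate, so p-values measure only the spread between these samples.

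Between 1337088 and 11939647 reads per sample fell on S. cerevisiae mRNAs. RRP6 mRNA stood between 3.18 and 20.1 CPM (the standard unit of read counts scaled to library size) in the deletion libraries and between 79.2 and 254 CPM in their wild-type controls. NAB3 mRNA was lower in Nab3-AID than in OsTIR-AID cells by 0.52 ± 0.11 on the log2 scale in steady-state RNA (edgeR adjusted p = 0.000714). The OsTIR-AID steady-state libraries had few reads at these loci, which limits the comparisons with Nab3-AID in that fraction.

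SRL1 (YOR247W, chromosome XV, 797676 to 798308, plus strand, 633 bp) encodes a mannoprotein of the cell wall and has a related gene, SVS1. The dubious open reading frame YOR248W overlaps 46.8% of SRL1 on its own strand, and reads that fell on both were not counted, so the level of SRL1 per length is understated. The noncoding transcript CUT3479 overlaps 69.4% of SRL1 on the opposite strand. BSC1 (YDL037C, chromosome IV, 384601 to 385587, minus strand, 987 bp) encodes a protein similar to the flocculin Flo11, a cell surface protein. The annotation notes that BSC1 and its neighbour PRM7 form a single continuous reading frame, IMI1, in W303. BSC1 lies opposite to the noncoding RNA SUT048/CUT1019, and CUT524 ends 351 bp upstream of it on its own strand.

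MIP6 (YHR015W, chromosome VIII, 134554 to 136533, plus strand, 1980 bp) encodes a putative RNA-binding protein that interacts with the mRNA export factor Mex67, and NUT0328/SRAT478 starts 149 bp downstream of it on the same strand. YOL114C (chromosome XV, 103317 to 103925, minus strand, 609 bp) encodes a protein similar to the human peptidyl-tRNA hydrolase ICT1 that associates with the large subunit of the mitochondrial ribosome. YBR296C-A (chromosome II, 800123 to 800242, minus strand, 120 bp) encodes a protein of unknown function. Coordinates are those of the authors' annotation of the sacCer3/R64 build.

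The 2 short genes differ from the others in their surroundings. YBR296C-A lies wholly inside the same-strand noncoding RNA SUT454/NUT0856/CUT1952 (chromosome II, 799305 to 800357, 1053 bp), and SUT024/CUT1287 runs opposite to it. YOL114C lies wholly inside NUT1391 (chromosome XV, 101488 to 103990, 2503 bp), which continues past YOL114C and runs antisense through PAP2, the gene of a TRAMP poly(A) polymerase. NUT1392/CUT824/CUT121 ends 439 bp upstream of YOL114C on the same strand. Of all 6600 genes, 306, or 4.64%, lie wholly inside a noncoding RNA of their own strand, against these 2 of 5. A read inside such a gene cannot be told apart from a read of the longer RNA.

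The deletion of RRP6 is described first. Values are sense reads in CPM of the mRNA table after TMM scaling, 1 value per replicate, with n = 2 in each group, and the difference is edgeR's log2 estimate with its standard error. Replicate 2 is given first for the deletion groups and replicate 1 first for the wild-type groups, so values in the same position are not same-numbered libraries. Each library pools many cells, so fewer cells carrying an RNA and less RNA per cell cannot be told apart.

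YBR296C-A was close to absent in wild-type cells in G1 and around the shift and present in every deletion library. In G1 it stood at 9.01 and 8.50 CPM in the deletion, from 148 reads, against 0.162 and 0 CPM in wild-type, from 1 read. The ratio of the counts was 104.6 (95% interval 18.5 to 4159, counting error only). At 2 h after the shift it stood at 15.2 and 15.3 CPM in the deletion against 0.178 and 0 CPM in wild-type, a count ratio of 175 (30.8 to 6955) that also rests on 1 wild-type read. At 2 h before the shift the ratio was 40.5 (10.9 to 340), from 85 reads against 2. In none of these 3 comparisons did the groups overlap. At 24 h the values were 7.94 and 9.84 CPM against 0.648 and 0.593 CPM, a log2 difference of 3.80 ± 0.52. At 48 h they were 30.2 and 51.3 CPM against 1.63 and 1.42 CPM, a difference of 4.68 ± 0.39. Both deletion libraries stayed above both wild-type libraries at these times too. In quiescent steady-state RNA the deletion had 56.7 and 48.9 CPM against 0.946 and 5.10 CPM, a difference of 4.08 ± 0.52, and in nascent RNA 16.9 and 20.5 CPM against 2.81 and 4.92 CPM, a difference of 2.27 ± 0.34.

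YOL114C, the peptidyl-tRNA hydrolase relative, was above wild-type in all 7 comparisons by a narrower range, from 1.14 to 2.94 on the log2 scale. In G1 it stood at 10.8 and 14.1 CPM in the deletion against 3.56 and 3.12 CPM in wild-type. At 2 h before the shift it stood at 16.6 and 23.4 CPM against 2.78 and 2.44 CPM, the widest of its differences at 2.94 ± 0.26. The groups did not overlap in either state. At 2 h after the shift it stood at 21.6 and 26.5 CPM against 5.52 and 8.75 CPM. At 24 h it stood at 29.1 and 24.0 CPM against 4.21 and 4.45 CPM. At 48 h it stood at 29.4 and 26.9 CPM against 5.22 and 7.12 CPM. The 3 differences were 1.76 ± 0.23, 2.61 ± 0.27 and 2.27 ± 0.32, again without overlap. In quiescent steady-state RNA the values were 44.0 and 45.045 CPM against 14.2 and 8.49 CPM, and in nascent RNA 29.3 and 16.3 CPM against 7.90 and 12.8 CPM. The nascent pair was the closest, at 1.14 ± 0.34.

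SRL1, the cell wall mannoprotein gene, was far above wild-type in G1 and late after the shift and not in quiescence. In G1 it stood at 222 and 203 CPM in the deletion against 17.9 and 17.8 CPM in wild-type, a log2 difference of 3.57 ± 0.11. At 24 h it stood at 274 and 279 CPM against 38.9 and 32.0 CPM, a difference of 2.97 ± 0.11, and at 48 h at 73.4 and 64.5 CPM against 10.8 and 19.2 CPM, a difference of 2.34 ± 0.18. Around the shift, where wild-type cells held most SRL1, the gap was small. At 2 h before it the values were 960 and 941 CPM against 547 and 530 CPM, and at 2 h after it 125 and 125 CPM against 92.8 and 85.8 CPM, which gives 0.82 ± 0.08 and 0.49 ± 0.10. In quiescent steady-state RNA the deletion had 7.60 and 6.01 CPM against 7.57 and 15.3 CPM, overlapping ranges, and in nascent RNA 4.47 and 5.45 CPM against 7.20 and 7.38 CPM, below wild-type. SRL1 was thus on both sides of wild-type, by state.

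MIP6, the partner of Mex67, differed most in G1. There it stood at 215 and 265 CPM in the deletion against 26.3 and 23.0 CPM in wild-type, a log2 difference of 3.28 ± 0.12. At 2 h after the shift it stood at 17.7 and 16.4 CPM against 8.02 and 6.35 CPM, a difference of 1.24 ± 0.22. At 24 h the order was turned, with 7.94 and 7.73 CPM in the deletion against 18.8 and 18.7 CPM, a difference of -1.26 ± 0.22. No other difference of MIP6 exceeded 0.34 in size. The groups overlapped at 48 h, with 20.2 and 31.3 CPM against 23.5 and 20.7 CPM, and in quiescent nascent RNA, with 18.5 and 24.2 CPM against 31.6 and 21.1 CPM.

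BSC1, the flocculin-like gene, was higher in quiescence and lower in G1 and at 2 h before the shift. In quiescent steady-state RNA it stood at 37.2 and 46.3 CPM in the deletion against 3.78 and 8.49 CPM in wild-type, a log2 difference of 2.73 ± 0.65. In quiescent nascent RNA it stood at 134 and 324 CPM against 56.5 and 37.8 CPM, a difference of 2.28 ± 0.41, with the deletion replicates far apart. In G1 it stood at 61.8 and 30.7 CPM against 66.1 and 84.2 CPM, and at 2 h before the shift at 6.86 and 5.39 CPM against 24.6 and 22.3 CPM. Both deletion groups were below wild-type, by -0.70 ± 0.23 and -1.96 ± 0.38. After the shift few reads were left. The counts were 10 in the deletion and 5 in wild-type at 2 h, 36 and 3 at 24 h, and 13 and 3 at 48 h. The count ratio at 24 h was 5.67 (1.79 to 28.8) and at 48 h 3.89 (1.07 to 21.3). PRM7, which forms 1 reading frame with BSC1 in W303, was above wild-type by 2.50 ± 0.59 in quiescent steady-state RNA, with 71.7 and 81.1 CPM against 13.2 and 13.6 CPM, and below by -0.90 ± 0.28 at 2 h before the shift.

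Counted by state, the number of the 5 mRNAs whose deletion libraries both lay above both wild-type libraries was 4 in quiescent steady-state RNA, 3 in quiescent nascent RNA, 4 in G1, 4 at 2 h before the shift, 5 at 2 h after it, 4 at 24 h and 4 at 48 h. The number wholly below was 1 in quiescent nascent RNA (SRL1), in G1 (BSC1), at 2 h before the shift (BSC1) and at 24 h (MIP6). Over all genes tested, both deletion libraries lay above both wild-type libraries in 33.6% and 20.4% in quiescent steady-state and nascent RNA, 38.1% in G1, 41.8% at 2 h before the shift, 42.1% at 2 h after it, 40.8% at 24 h and 32.8% at 48 h, and wholly below in 18.7% to 42.5%. Since the 5 were selected on these comparisons, the counts are a description.

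**Figure D1:**
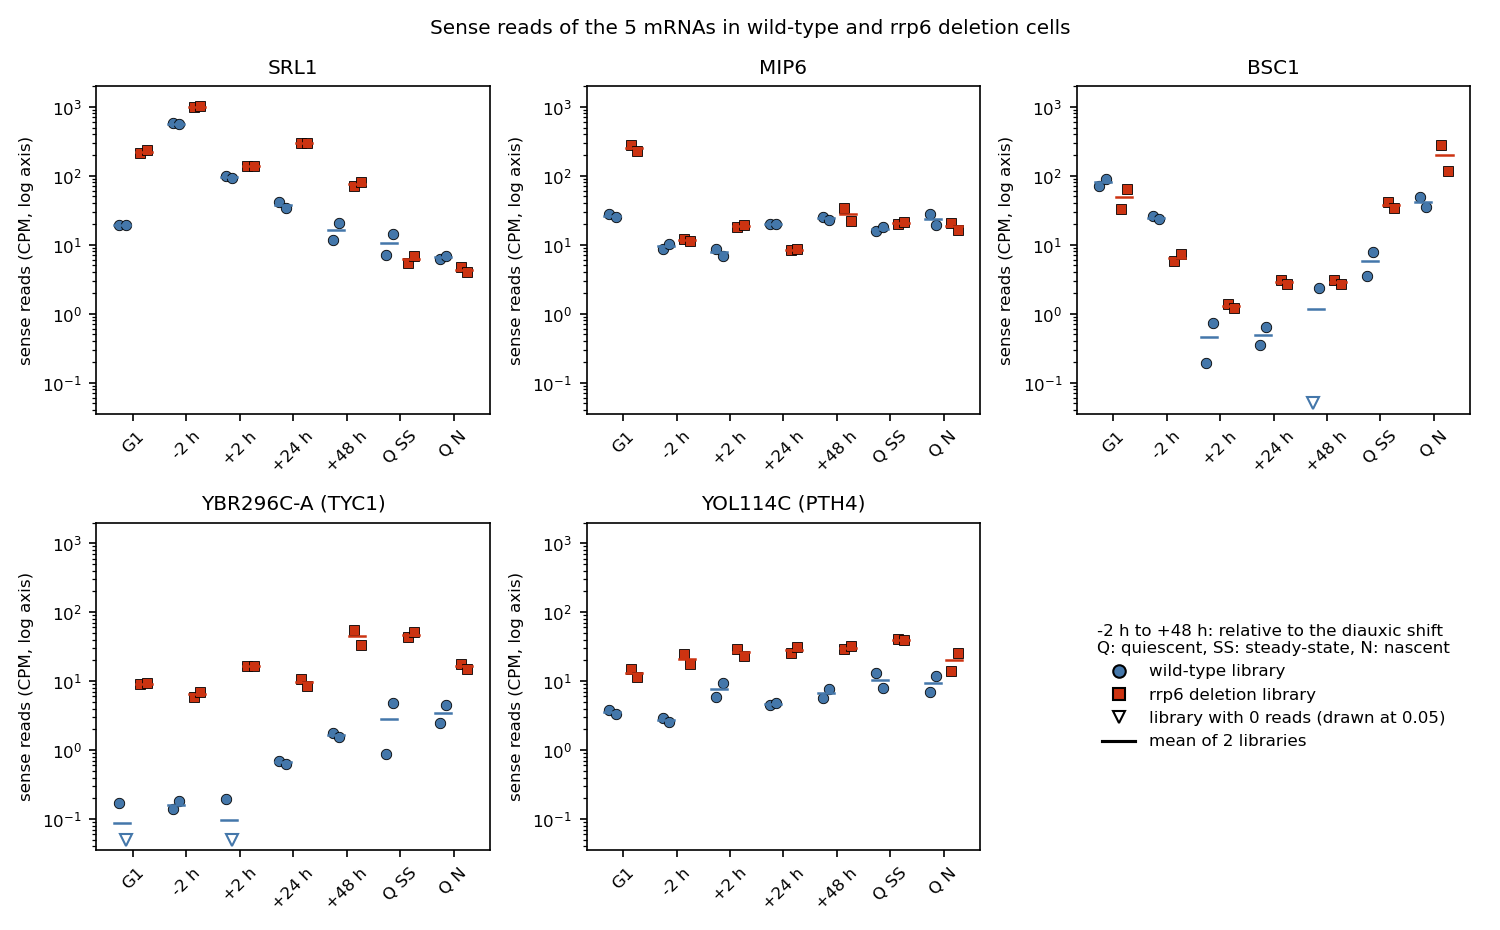
Sense reads of the 5 mRNAs in CPM (log axis) in each wild-type (circles) and rrp6 deletion (squares) library, by state, with the mean of each pair as a bar and libraries with no read as open triangles. YBR296C-A and YOL114C lie above wild-type in all 7 states, SRL1 and MIP6 differ most in G1, and BSC1 lies below wild-type in G1 and 2 h before the shift and above it in quiescence.

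The noncoding RNAs beside the 5 genes were read in the same libraries. Those that enclose the 2 short genes were above wild-type in most comparisons: NUT1391 in 7 of 7, by 1.03 to 3.03 on the log2 scale, and SUT454/NUT0856/CUT1952 in 6 of 7, with overlap in quiescent nascent RNA, by 0.49 to 4.88. Both counts include the reads inside the gene. In these groups 68.3% to 89.6% of the NUT1391 reads lay inside YOL114C, so the 2 rises are not separate observations. CUT524, upstream of BSC1, was above in 7 of 7, NUT0328/SRAT478, downstream of MIP6, in 6 of 7, and NUT1392/CUT824/CUT121 in 5 of 7. The 3 RNAs antisense to members moved both ways. SUT048/CUT1019, opposite to BSC1, was above in 5 and below in 1, with a low of -1.23 ± 0.13 at 2 h after the shift. SUT024/CUT1287, opposite to YBR296C-A, was above in 4 and below in 1, with a low of -2.01 ± 0.16 at 24 h. CUT3479, opposite to SRL1, was above in 2 and below in 2. The median of all noncoding RNAs tested was higher in the deletion in every comparison, least so in quiescent nascent RNA, at 0.26 on the log2 scale. Both deletion libraries lay above both wild-type libraries in 57.8% and 45.4% of them in quiescent steady-state and nascent RNA, in 79.4% in G1, 80.7% at 2 h before the shift, 77.5% at 2 h after it, 68.7% at 24 h and 57.6% at 48 h, and wholly below in 6.84% to 17.1%.

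Reads on the strand opposite to MIP6 were above wild-type in 6 of 7 comparisons. At 24 h after the shift, where MIP6 sense reads were low in the deletion, opposite-strand reads stood at 11.8 and 11.7 CPM against 0.324 and 0 CPM, from 160 reads against 1. The count ratio was 75.6 (13.4 to 3003). In G1, where MIP6 sense reads were at their highest, the opposite strand stood at 5.24 and 5.97 CPM against 1.62 and 1.91 CPM. Both strands of MIP6 were thus above wild-type in G1, and at 24 h they differed in opposite directions. For the other 4 genes the opposite strand was above wild-type in 1 to 3 of 7 comparisons and below in 1 or 2. Over all genes the opposite-strand reads were above without overlap in 54.2% and 41.6% in quiescent steady-state and nascent RNA, in 68.7% in G1, 69.3% at 2 h before the shift, 70.6% at 2 h after it, 66.8% at 24 h and 50.1% at 48 h, and wholly below in 8.34% to 14.1%.

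Depletion of Nab3 in quiescent cells was not used to select the 5 mRNAs, and this comparison asks whether they change with the termination factor too. YOL114C and YBR296C-A rose in both fractions, by 3.04 to 4.07 on the log2 scale, MIP6 fell in both, SRL1 rose in nascent RNA, and BSC1 passed the test in neither. In steady-state RNA 3 of the 5 were called (2 higher, 1 lower; edgeR quasi-likelihood test, Benjamini-Hochberg adjusted p under 0.05), against 63.0% of 6135 genes, and in nascent RNA 4 of 5 (3 higher, 1 lower), against 69.9%. These shares are near the background, so the number called says nothing particular about the 5. The median log2 difference of the 5 was 1.73 in steady-state and 0.78 in nascent RNA, against 0.10 and 0.01 over all genes. With 5 genes a median is the value of 1 of them. It was BSC1, which did not pass the test, in steady-state RNA and SRL1 in nascent RNA. The medians therefore do not show that the 5 rose as a set.

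YOL114C stood at 78.3 and 82.6 CPM in Nab3-AID against 2.23 and 10.2 CPM in OsTIR-AID steady-state RNA, from 462 reads against 11. The log2 difference was 3.69 ± 0.34 (edgeR adjusted p = 7.67e-08). Nascent YOL114C stood at 115 and 127 CPM against 8.20 and 5.76 CPM, a difference of 4.07 ± 0.21 (edgeR adjusted p = 8.13e-11). Both Nab3-AID libraries lay above both controls in each fraction, and the difference between fractions, 0.38 ± 0.53, did not pass the test (edgeR adjusted p = 0.624). YBR296C-A stood at 46.2 and 36.9 CPM against 2.23 and 7.92 CPM in steady-state RNA, a difference of 3.04 ± 0.37 (edgeR adjusted p = 2.1e-06). Nascent YBR296C-A stood at 39.1 and 36.9 CPM against 4.62 and 4.24 CPM, a difference of 3.08 ± 0.23 (edgeR adjusted p = 5.14e-09). Again no Nab3-AID library overlapped a control.

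MIP6 went the other way. It stood at 4.17 and 3.32 CPM in Nab3-AID against 12.3 and 13.6 CPM in steady-state RNA, a difference of -1.76 ± 0.44 (edgeR adjusted p = 0.00231) from 22 and 23 reads. Nascent MIP6 stood at 6.15 and 7.78 CPM against 11.98 and 9.39 CPM, a difference of -0.65 ± 0.25 (edgeR adjusted p = 0.0281). The groups did not overlap. The nascent call was lost with DESeq2 (adjusted p = 0.138), without Nab3-AID nascent replicate 1 (edgeR adjusted p = 0.210) and without OsTIR-AID nascent replicate 1 (edgeR adjusted p = 0.276).

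SRL1 stood at 19.1 and 18.2 CPM against 9.25 and 13.0 CPM in nascent RNA, a difference of 0.78 ± 0.21 (edgeR adjusted p = 0.00359). In steady-state RNA it stood at 12.5 and 16.6 CPM against 22.3 and 20.4 CPM, a difference of -0.58 ± 0.30 that did not pass (edgeR adjusted p = 0.109). The groups did not overlap in either fraction and lay in opposite order. SRL1 was the only 1 of the 5 whose change differed between the fractions, by 1.35 ± 0.38 (edgeR adjusted p = 0.0137), which is 1 of 5 against 28.8% of all genes. Without OsTIR-AID nascent replicate 1 the nascent call was lost (edgeR adjusted p = 0.0945), and the difference between fractions was lost in 4 of its leave-one-out fits (edgeR adjusted p from 0.0505 to 0.0661), those without Nab3-AID steady-state replicate 1, OsTIR-AID nascent replicate 1 or either OsTIR-AID steady-state replicate.

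BSC1 had 22 reads in Nab3-AID and 2 in OsTIR-AID steady-state RNA, a count ratio of 3.39 (0.834 to 29.8), with 4.47 and 2.90 CPM against 2.23 and 0 CPM. In nascent RNA it stood at 9.002 and 7.49 CPM against 6.52 and 7.57 CPM, overlapping groups. Neither difference passed the test (edgeR adjusted p = 0.113 and 0.449), and the depth in steady-state RNA does not allow a small one to be seen. Without OsTIR-AID steady-state replicate 1, which leaves 1 control library with 0 reads and a spread taken from the other groups, BSC1 was called higher in steady-state RNA (edgeR adjusted p = 0.0416). The neighbour PRM7 stood at 19.5 and 13.2 CPM against 17.0 and 18.8 CPM in nascent RNA, also without a call.

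All values are shares of S. cerevisiae mRNA. When libraries were scaled by the reads of Kluyveromyces lactis, a yeast whose RNA was present in every library in an amount the labels do not give, the median of all genes moved by 1.71 in steady-state and 1.11 in nascent RNA. On that scale the decrease of MIP6 in steady-state RNA was -0.075 and no longer called (edgeR adjusted p = 0.918), MIP6 in nascent RNA turned to 0.40, and BSC1 was called higher in both fractions, at 3.44 and 1.36, while YOL114C and YBR296C-A kept their calls. The decrease of MIP6 is therefore relative to other mRNAs.

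**Figure D2:**
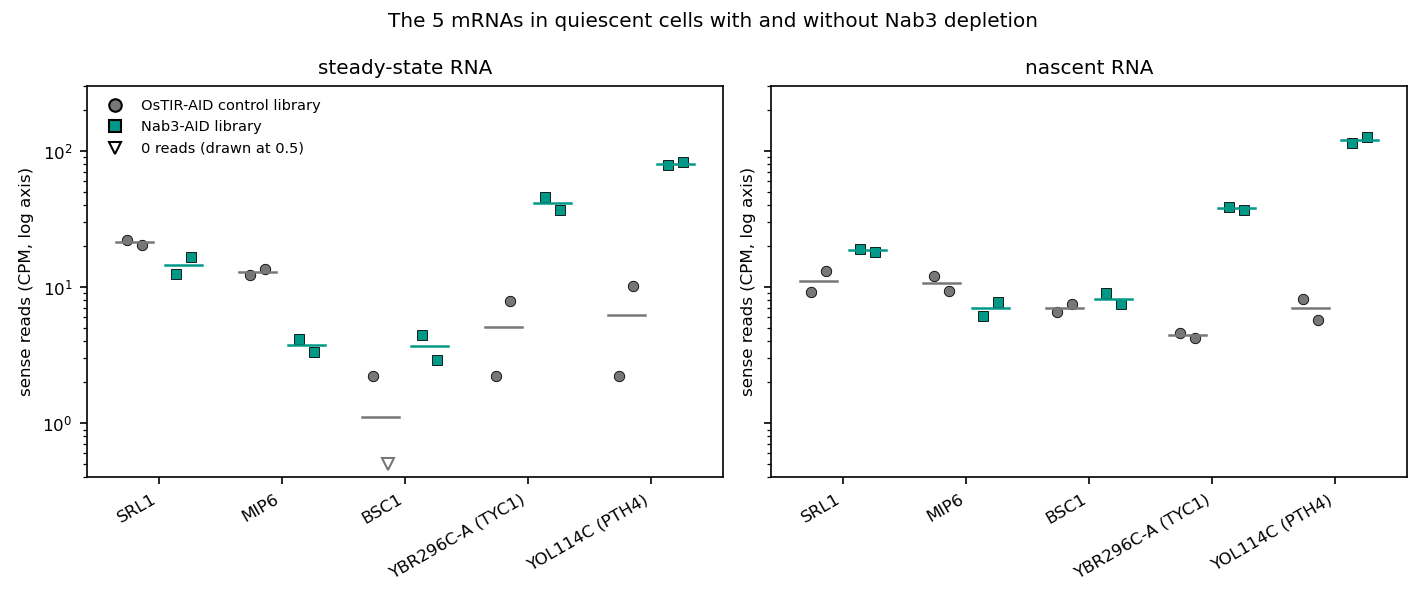
Sense reads of the 5 mRNAs in CPM (log axis) in OsTIR-AID control (circles) and Nab3-AID (squares) libraries, in steady-state and nascent RNA, with the mean of each pair as a bar. YBR296C-A and YOL114C lie far above the controls in both fractions, MIP6 lies below them, and SRL1 changes sides between the fractions.

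The noncoding RNAs at these loci rose with Nab3 depletion. Of the 8 that overlap a member or lie within 1 kb of it, 7 were called higher in steady-state RNA. Over all 3881 noncoding RNAs 61.5% were called higher and 71.2% in either direction. In nascent RNA 7 were higher and 1 lower, against 73.9% called higher and 82.9% in either direction. Most noncoding RNAs rose as well, so these counts say nothing particular about the 8. NUT1391, which encloses YOL114C, stood at 173 and 197 CPM against 4.47 and 9.06 CPM in steady-state RNA and at 251 and 282 CPM against 13.5 and 10.9 CPM in nascent RNA. Its differences of 4.77 ± 0.26 and 4.43 ± 0.18 (edgeR adjusted p = 7.96e-15 and 5.54e-18) were the largest of the 8 in steady-state RNA and the second largest in nascent RNA. NUT1392/CUT824/CUT121 rose by 4.51 ± 0.30 in nascent RNA (edgeR adjusted p = 1e-13), with 44.4 and 47.0 CPM against 2.31 and 1.51 CPM. In steady-state RNA it had 166 reads against 3, a count ratio of 17.1 (5.74 to 83.6).

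SUT454/NUT0856/CUT1952, which encloses YBR296C-A, stood at 152 and 165 CPM against 5.58 and 22.6 CPM in steady-state RNA, a difference of 3.49 ± 0.28 (edgeR adjusted p = 5.22e-11). In nascent RNA it rose by 3.13 ± 0.21 (edgeR adjusted p = 6.46e-13). NUT0328/SRAT478, downstream of MIP6, rose by 1.48 ± 0.32 and 2.10 ± 0.21, and CUT524, upstream of BSC1, by 1.49 ± 0.57 and 3.11 ± 0.35 in the 2 fractions. SUT048/CUT1019 and SUT024/CUT1287, which run opposite to BSC1 and YBR296C-A, rose by 0.95 ± 0.37 and 0.96 ± 0.23 in steady-state RNA and by 2.17 ± 0.25 and 1.83 ± 0.16 in nascent RNA. The steady-state calls of CUT524 and SUT048/CUT1019 were lost when Nab3-AID steady-state replicate 1 or OsTIR-AID steady-state replicate 1 was left out, and that of CUT524 also without OsTIR-AID steady-state replicate 2. CUT3479, opposite to SRL1, was the exception, at 3.87 and 3.97 CPM against 8.20 and 8.18 CPM in nascent RNA, a difference of -1.06 ± 0.30 (edgeR adjusted p = 0.0021) that turned to 0.02 with K. lactis scaling.

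On the strand opposite to MIP6, 60 reads were counted in Nab3-AID and 0 in OsTIR-AID steady-state RNA, at least 6.17-fold higher against a floor of 3 reads over the control group (edgeR adjusted p = 1.14e-05). In nascent RNA the opposite strand stood at 15.8 and 12.8 CPM against 0.841 and 0.303 CPM, a difference of 4.47 ± 0.47 (edgeR adjusted p = 3.78e-12). These reads passed the filter on low counts through the Nab3-AID libraries alone, and with no filter both calls were kept (edgeR adjusted p = 4.36e-06 and 7.52e-15). Relative to other mRNAs, MIP6 thus had fewer sense and more opposite-strand reads in the same libraries. MIP6 was the only 1 of the 5 with an opposite-strand call in steady-state RNA, against 70.2% of 5866 genes, a share well above 1 of 5. In nascent RNA all 5 were called, against 83.6%. Besides MIP6, BSC1 rose by 1.78 ± 0.40 and YBR296C-A by 1.38 ± 0.27 on the opposite strand, while SRL1 fell by 1.04 ± 0.40 and YOL114C fell by 0.71 ± 0.30 (edgeR adjusted p = 5.99e-05, 7.35e-06, 0.0147 and 0.0282). The opposite-strand reads of SRL1 passed the filter through OsTIR-AID libraries alone, and that call was kept with no filter (edgeR adjusted p = 0.0157). The decreases of SRL1 and YOL114C were each lost in 3 of the 4 fits that left out a nascent library: that of SRL1 without either Nab3-AID replicate (edgeR adjusted p = 0.0831 and 0.139) or OsTIR-AID replicate 1 (0.170), and that of YOL114C without either Nab3-AID replicate (0.0747 and 0.243) or OsTIR-AID replicate 2 (0.09).

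**Figure D3:**
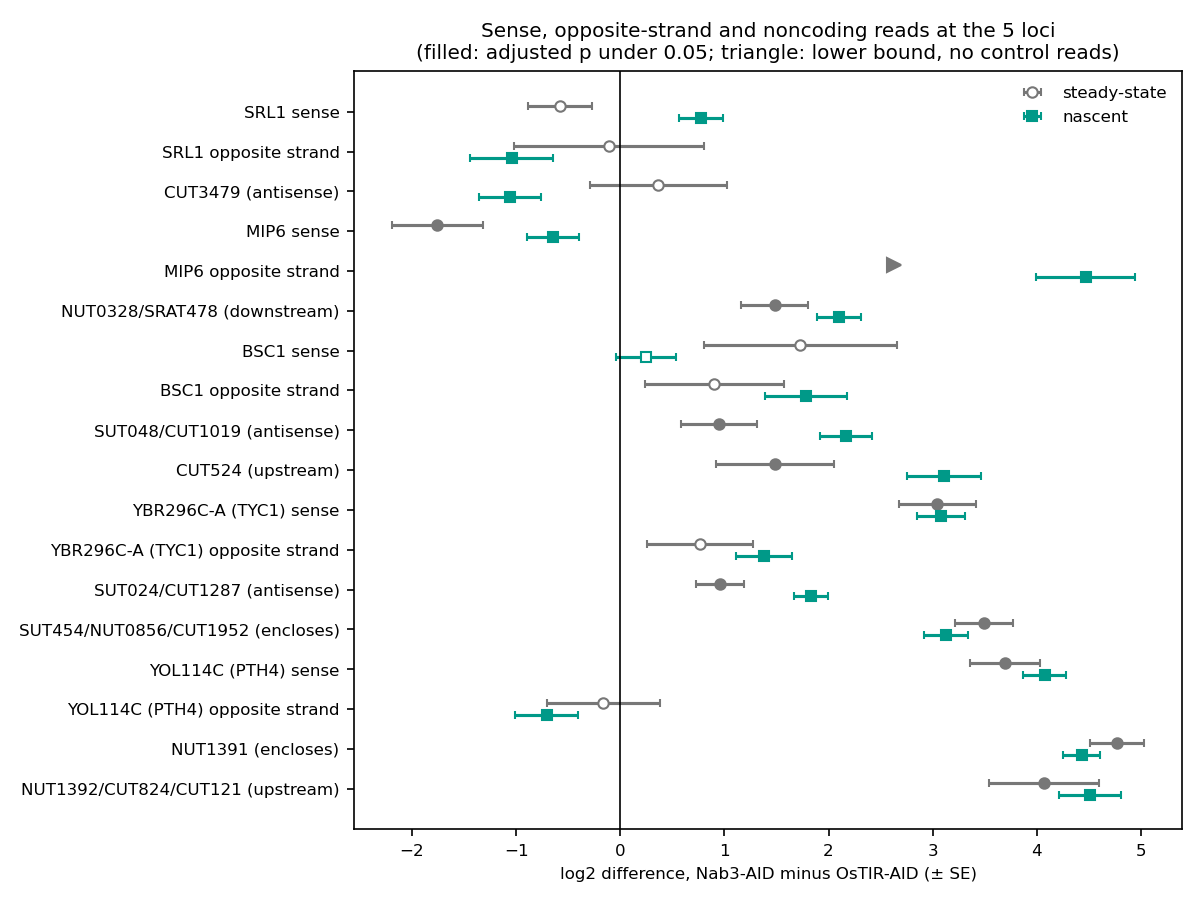
Log2 difference between Nab3-AID and OsTIR-AID cells, with its standard error, for sense reads, opposite-strand reads and the noncoding RNAs at each of the 5 loci, in steady-state (circles) and nascent (squares) RNA. Filled symbols passed the test, and the triangle marks a lower bound for a feature with no control reads. The noncoding RNAs enclosing YBR296C-A and YOL114C lie at 3.13 to 4.77.

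The reads of the enclosing RNAs can be split into those inside and outside the reading frames. In Nab3-AID nascent libraries 1876 of 4121 NUT1391 reads lay in YOL114C, a share of 45.5% (95% Wilson interval 44.0 to 47.0, counting error only), and 2245 lay outside it, against 42 outside in OsTIR-AID. These are raw counts, and the Nab3-AID libraries were deeper, with 6654856 and 5249342 mRNA reads against 4808631 and 3433097. The share was 43.7% (40.7 to 46.7) in Nab3-AID steady-state RNA. YOL114C makes up 24.3% of the length of NUT1391. In the day 8 quiescent cells the share was 89.6% (85.6 to 92.6) in rrp6 deletion and 89.3% (72.8 to 96.3) in wild-type steady-state RNA, and in nascent RNA 80.0% (76.9 to 82.9) and 74.0% (68.9 to 78.5). The share in the 14 deletion and wild-type groups of the Universal Plus set lay between 68.3% and 89.6%, all above both Nab3-AID groups. OsTIR-AID nascent libraries, with 100 reads, lay between at 58.0% (48.2 to 67.2). The OsTIR-AID steady-state share was 91.7% (64.6 to 98.5), on 12 reads. In 1 OsTIR-AID steady-state library the gene had 9 reads and NUT1391 only 8, so the 2 tables were not counted in an identical way.

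YBR296C-A makes up 11.4% of SUT454/NUT0856/CUT1952. Its share of those reads was 28.0% (26.1 to 29.95) in Nab3-AID and 28.6% (21.4 to 37.0) in OsTIR-AID nascent RNA, similar shares. In steady-state RNA of the rrp6 deletion the share was 45.3% (40.0 to 50.7) in G1, 43.6% (36.8 to 50.6) at 2 h before the shift, 45.4% (40.9 to 50.05) at 48 h and 43.0% (39.5 to 46.6) in quiescence. It was lower at 2 h after the shift, at 22.7% (19.4 to 26.4), and at 24 h, at 14.97% (12.7 to 17.6). Wild-type cells at 2 h after the shift had 413 reads on the longer RNA and only 1 in YBR296C-A, a share of 0.242% (0.0428 to 1.36), the lowest share of any group. Wild-type quiescent nascent RNA had 8.76% (7.16 to 10.7) with the Universal Plus kit, from 5.28% in 1 library and 14.0% in the other, both outside that interval.

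**Figure D4:**
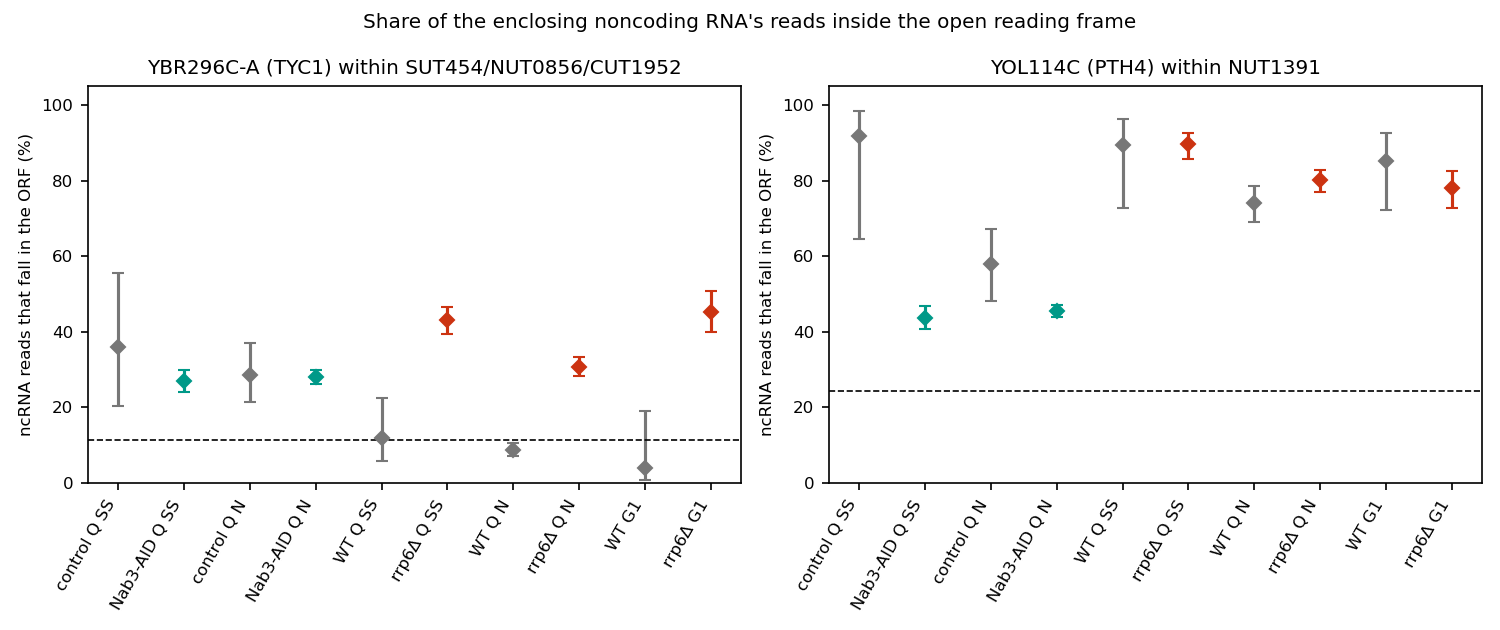
Share of the reads of the enclosing noncoding RNA that fell inside YBR296C-A (left) and YOL114C (right), in percent, by group, with the 95% Wilson interval over the pooled reads of 2 libraries as bars and the share of the length as a dashed line. Nab3-AID groups lie near 45% for YOL114C, where rrp6 deletion and wild-type groups lie at 74.0% or above in the groups drawn. Their OsTIR-AID controls lie at 58.0% in nascent RNA and at 91.7%, on 12 reads, in steady-state RNA.

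The genes next to the 2 short ones were also read. PAP2, through which NUT1391 runs antisense, fell with Nab3 depletion by 0.38 ± 0.16 in steady-state and by 1.01 ± 0.12 in nascent RNA (edgeR adjusted p = 0.0472 and 1.49e-06). Reads opposite to PAP2 stood at 145 and 164 CPM against 5.04 and 5.45 CPM in nascent RNA, a difference of 4.88 ± 0.22. PHO89, a phosphate transporter gene downstream of YBR296C-A on the same strand, stood at 209 and 164 CPM against 2014 and 2242 CPM in steady-state RNA, a difference of -3.51 ± 0.19 (edgeR adjusted p = 3.99e-08), and at -2.25 ± 0.18 in nascent RNA. In the rrp6 deletion PHO89 was below wild-type in 6 of 7 comparisons, by as much as -5.37 ± 0.26 at 24 h, and above it at 2 h after the shift.

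Directions in the gene lists that follow are relative to other mRNAs, since K. lactis scaling moves the median of all genes upward, and over all genes 32.4% rose and 30.7% fell in steady-state RNA and 36.0% rose and 33.9% fell in nascent RNA. The lists are described and no list was tested. Of the pathway itself, 22 exosome, TRAMP and Nrd1-Nab3-Sen1 genes were counted: 11 rose and 5 fell in steady-state RNA of Nab3-AID cells and 6 rose and 7 fell in nascent RNA, with medians of 0.63 and 0.02 against 0.10 and 0.01 over all genes. NRD1, whose mRNA is known to be limited by its own complex, rose by 3.42 ± 0.16 in steady-state RNA. Of 15 mRNAs reported as regulated by this termination or by nuclear decay, 9 rose and 3 fell in steady-state RNA and 9 rose and 4 fell in nascent RNA, with medians of 1.06 and 1.44. Among them the phosphate transporter gene PHO84 changed by -3.06 ± 0.13 and the GTP synthesis gene IMD2 rose by 3.21 ± 0.72 in nascent RNA. Of 27 cell wall protein genes, the class of SRL1, 3 rose and 16 fell in steady-state RNA and 8 rose and 9 fell in nascent RNA, with medians of -0.78 and -0.05. Of 15 mRNA export and 3′ end genes, 4 rose and 4 fell, then 3 rose and 9 fell. Of 7 tested genes of mitochondrial release and peptidyl-tRNA hydrolysis, the class of YOL114C, 2 rose and 3 fell, then 1 rose and 3 fell. PTH2, another peptidyl-tRNA hydrolase gene, rose by 1.55 ± 0.57 in steady-state RNA.

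Wild-type quiescent and G1 cells were compared in the Ovation libraries. There SRL1 and BSC1 fell in both fractions, YOL114C rose in both, YBR296C-A rose in nascent RNA and MIP6 fell in nascent RNA. In steady-state RNA 3 of 5 were called (1 higher, 2 lower), against 74.6% of 5970 genes, and in nascent RNA all 5 (2 higher, 3 lower), against 62.1%. BSC1 stood at 1.49 and 0.893 CPM in quiescence against 122 and 138 CPM in G1 steady-state RNA, a difference of -6.69 ± 0.48 (edgeR adjusted p = 3.46e-06). Nascent BSC1 stood at 9.98 and 4.39 CPM against 260 and 258 CPM, a difference of -5.18 ± 0.35 (edgeR adjusted p = 8.31e-06). Both quiescent libraries lay far below both G1 libraries. The neighbour PRM7 fell by 4.49 ± 0.19 and by 3.89 ± 0.17.

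SRL1 stood at 2.09 and 0 CPM in quiescence against 18.7 and 36.3 CPM in G1 steady-state RNA, a difference of -4.47 ± 0.81 (edgeR adjusted p = 0.000963). Nascent SRL1 stood at 2.97 and 0.896 CPM against 11.5 and 10.3 CPM, a difference of -2.52 ± 0.62 (edgeR adjusted p = 0.00755). The groups did not overlap. YOL114C rose, with 11.3 and 5.36 CPM against 1.82 and 2.91 CPM in steady-state RNA and 8.81 and 6.54 CPM against 1.41 and 2.49 CPM in nascent RNA. Its differences were 1.85 ± 0.54 and 1.96 ± 0.45 (edgeR adjusted p = 0.012 and 0.00527), again without overlap. The steady-state call was lost without G1 replicate 1 (edgeR adjusted p = 0.0791) or quiescent replicate 1 (0.180), and the nascent call without G1 nascent replicate 1 (0.0504).

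YBR296C-A rose in nascent RNA, with 5.20 and 5.91 CPM in quiescence against 0.627 and 0.233 CPM in G1, a difference of 3.64 ± 0.49 (edgeR adjusted p = 0.000327). Its 2 quiescent nascent libraries were the only ones to reach the filter on low counts, and the call was kept with no filter (edgeR adjusted p = 0.000268). In steady-state RNA it had 3 reads in each state, too few to show a difference. MIP6 changed least. It stood at 31.1 and 37.5 CPM against 26.7 and 26.2 CPM in steady-state RNA (0.37 ± 0.22, edgeR adjusted p = 0.16) and fell in nascent RNA, with 19.7 and 18.01 CPM against 25.9 and 34.0 CPM, by 0.67 ± 0.21 (edgeR adjusted p = 0.0212). That nascent call was lost without G1 nascent replicate 2 (edgeR adjusted p = 0.176) or quiescent nascent replicate 2 (0.0742). The change of MIP6 differed between the fractions by -1.03 ± 0.30 (edgeR adjusted p = 0.0267), the only such difference among the 5, against 37.8% of all genes, and it was lost in 5 of the 8 fits that left out a library (edgeR adjusted p from 0.0533 to 0.123): those without G1 nascent replicate 2, either G1 steady-state replicate, quiescent nascent replicate 2 or quiescent steady-state replicate 2. Without quiescent nascent replicate 2, BSC1 was called instead (edgeR adjusted p = 0.0102).

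With K. lactis scaling the median of all genes moved by -0.39 in steady-state and by -4.48 in nascent RNA. YOL114C then changed by -2.39 in nascent RNA, above the shift of the median, and was no longer called in steady-state RNA at 1.68 (edgeR adjusted p = 0.106). The rise of YOL114C in nascent RNA is therefore relative to other mRNAs.

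Nascent and steady-state levels within a state were also set side by side. In G1 BSC1 was higher in nascent RNA by 0.99 ± 0.29 (edgeR adjusted p = 0.035), the only 1 of 5 called, against 27.5% of genes, and this call was lost when any of the 4 G1 libraries was left out (edgeR adjusted p from 0.108 to 0.178). In quiescence 3 of 5 were called, against 52.9%. BSC1 was higher in nascent RNA by 2.50 ± 0.57, on 143 reads against 7. YBR296C-A was higher, with 115 reads against 3, a count ratio of 10.4 (3.47 to 51.2), and MIP6 was lower by 0.85 ± 0.22 (edgeR adjusted p = 0.00663, 0.00339 and 0.0108). YBR296C-A passed the filter on low counts only through the nascent libraries, the higher side of this comparison. Its call was kept with no filter (edgeR adjusted p = 0.00317).

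**Figure D5:**
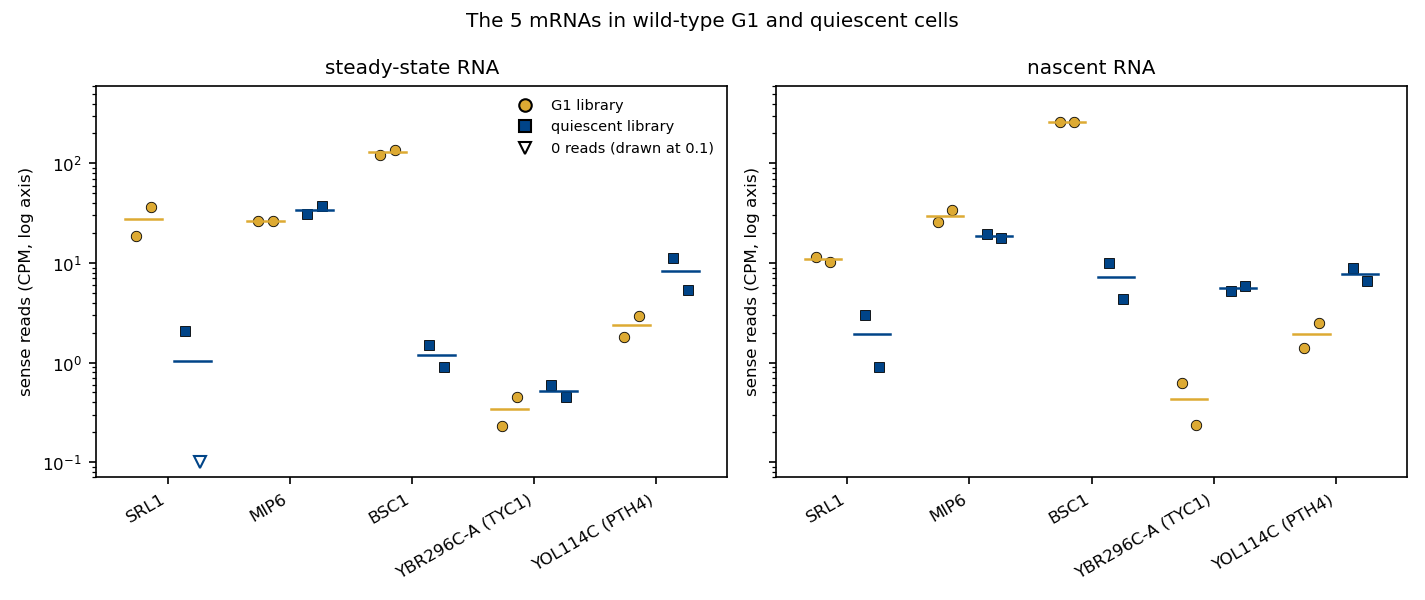
Sense reads of the 5 mRNAs in CPM (log axis) in wild-type G1 (circles) and quiescent (squares) Ovation libraries, in steady-state and nascent RNA, with the mean of each pair as a bar and a library with no read as an open triangle. SRL1 and BSC1 lie lower in quiescence and YOL114C higher in both fractions, and YBR296C-A lies higher in nascent RNA.

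On the opposite strand in quiescence, YBR296C-A was the only 1 of 5 called in steady-state RNA, against 51.0% of 4440 genes, with 8.36 and 25.5 CPM against 6.16 and 3.14 CPM (edgeR adjusted p = 0.00507). That call was lost without G1 steady-state replicate 2 (edgeR adjusted p = 0.0703) or quiescent steady-state replicate 2 (0.168). In nascent RNA 3 of 5 were called, against 67.3%, all higher: SRL1 by 3.42 ± 0.75, MIP6 by 2.57 ± 0.75 and YBR296C-A by 1.97 ± 0.42 (edgeR adjusted p = 0.000705, 0.00616 and 0.000624). The opposite strands of SRL1 and MIP6 passed the filter through quiescent libraries alone, and both calls were kept with no filter (edgeR adjusted p = 0.000395 and 0.00391). Of the 8 noncoding RNAs, 4 were called in quiescent steady-state RNA, all higher, against 57.6% of 3496 called and 41.1% called higher. In nascent RNA 5 were called, all higher, against 67.0% called and 55.9% called higher. NUT1391 rose by 1.86 ± 0.52 and 2.23 ± 0.45, but this is largely the rise of YOL114C counted again. Of the NUT1391 reads, 50 of 53 in quiescent and 21 of 22 in G1 steady-state RNA lay inside YOL114C. In nascent RNA they were 156 of 194 and 50 of 52. SUT454/NUT0856/CUT1952 rose by 1.31 ± 0.33 and 1.95 ± 0.30. The steady-state call of NUT1391 was lost without G1 replicate 1 or quiescent replicate 1 (edgeR adjusted p = 0.0654 and 0.181), and that of SUT454/NUT0856/CUT1952 without quiescent replicate 1 (0.0791). CUT3479, opposite to SRL1, rose by 2.00 ± 0.54 and 3.30 ± 0.48 where SRL1 itself fell. It passed the filter through quiescent libraries alone, and both calls were kept with no filter (edgeR adjusted p = 0.00612 and 1.88e-05). With K. lactis scaling all 5 nascent rises of noncoding RNAs turned below 0, along with the median, and the steady-state calls of NUT1391, SUT454/NUT0856/CUT1952 and CUT3479 were lost.

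In wild-type cells around the diauxic shift, SRL1 rose and then fell. These wild-type libraries are also the controls of the deletion comparisons on which the 5 mRNAs were selected. The p-values of every step from G1 across the shift are therefore not independent of the selection. From 17.9 and 17.8 CPM in G1 it stood at 547 and 530 CPM at 2 h before the shift, a difference of 4.91 ± 0.11 (edgeR adjusted p = 1.02e-21). It then fell at each step, to 92.8 and 85.8 CPM at 2 h, 38.9 and 32.0 CPM at 24 h and 10.8 and 19.2 CPM at 48 h. The 3 steps were -2.59 ± 0.09, -1.33 ± 0.12 and -1.38 ± 0.19 (edgeR adjusted p = 1.98e-18, 6.75e-10 and 5.88e-07), with no overlap between neighbouring times. The related gene SVS1 also rose into the shift, by 2.66 ± 0.09, and fell after it by 0.98 ± 0.08. All G1 libraries carry a different batch label in the file headers from those at 2 h before the shift, so batch and state cannot be told apart in that first step.

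BSC1 fell from 66.1 and 84.2 CPM in G1 to 24.6 and 22.3 CPM at 2 h before the shift, by 1.67 ± 0.26 (edgeR adjusted p = 7.66e-05). At 2 h after the shift it stood at 0.178 and 0.686 CPM, on 5 reads, a further change of -5.68 ± 0.68 (edgeR adjusted p = 2.2e-06), and later changes could not be seen at 3 reads a group. Its opposite strand did the reverse, with 3.04 and 2.96 CPM before and 30.8 and 36.5 CPM at 2 h after the shift, a rise of 3.48 ± 0.23 (edgeR adjusted p = 1.44e-36), followed by decreases of 1.96 ± 0.22 and 1.68 ± 0.43 to 24 h and 48 h, the last of them lost without 48 h replicate 1 (edgeR adjusted p = 0.0733). MIP6 was lower at 2 h before the shift than in G1 by 1.46 ± 0.18 (edgeR adjusted p = 1.88e-07), with 8.33 and 9.75 CPM against 26.3 and 23.0 CPM. It returned from 8.02 and 6.35 CPM at 2 h to 18.8 and 18.7 CPM at 24 h, a rise of 1.38 ± 0.23 (edgeR adjusted p = 1.28e-05) that turned to -0.04 with K. lactis scaling, on which the median of all genes moved by -1.42. YOL114C rose once, from 2.78 and 2.44 CPM to 5.52 and 8.75 CPM across the shift, by 1.44 ± 0.32 (edgeR adjusted p = 0.000279), and with K. lactis scaling this call was lost at 0.50 (edgeR adjusted p = 0.157). Between 2 h and 24 h YOL114C changed by -0.72 ± 0.35, which passed the test without the replicate 1 library of 2 h (edgeR adjusted p = 0.024) and with K. lactis scaling, at -2.14. YBR296C-A had 1 to 7 reads a group in these wild-type cells and passed no test.

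In the 4 successive steps 3, 3, 2 and 1 of the 5 mRNAs were called, against 53.6%, 78.0%, 60.6% and 71.7% of 6146 genes. On the opposite strand the numbers were 3, 4, 3 and 2 of 5, against 17.6%, 41.2%, 20.4% and 29.8% of 5841 genes. The sense counts lie close to or below their background. Several opposite-strand calls rested on single libraries. In the first step that of MIP6 was lost in all 4 fits that left out a library (edgeR adjusted p from 0.0513 to 0.115), and that of BSC1 without replicate 1 of 2 h before the shift or of G1 (0.0659 and 0.283). In the second step that of SRL1 was lost without replicate 2 of 2 h before or replicate 1 of 2 h after the shift (edgeR adjusted p = 0.259 and 0.0694), and that of YOL114C without replicate 1 of 2 h after it (0.057).

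Level in every condition. To order the levels, all 36 Universal Plus libraries were put on a common TMM scale, and the values here are means ± SD of 2 libraries on that scale. SRL1 was highest at 2 h before the shift, at 1006 ± 9.69 CPM in the deletion and 565 ± 13.1 CPM in wild-type, followed by the deletion at 24 h (299 ± 3.99 CPM), in G1 (224 ± 13.9 CPM) and at 2 h (137 ± 0.799 CPM). Each of these lay clear of the next. OsTIR-AID steady-state RNA, at 20.5 ± 1.34 CPM, also lay clear of the next group, and from Nab3-AID nascent RNA at 16.5 ± 0.689 CPM downward most neighbours overlapped. The lowest was quiescent nascent RNA of the deletion, at 4.33 ± 0.514 CPM, 232-fold below the highest.

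MIP6 had a single high group, the deletion in G1 at 253 ± 38.0 CPM, clear of the next, the deletion at 48 h at 28.0 ± 8.47 CPM. From there to 17.0 ± 1.68 CPM in wild-type quiescent steady-state RNA every group overlapped its neighbour. The 2 Nab3-AID groups were the lowest, at 6.16 ± 0.980 and 3.43 ± 0.569 CPM, and the steady-state one lay below all others.

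BSC1 was highest in quiescent nascent RNA of the deletion, at 199 ± 114 CPM, then in wild-type G1, at 80.5 ± 14.1 CPM, both clear of the next. The deletion in G1 (48.7 ± 23.1 CPM), wild-type quiescent nascent RNA (42.0 ± 10.4 CPM) and deletion quiescent steady-state RNA (37.5 ± 5.59 CPM) overlapped. The lowest was wild-type at 2 h after the shift, at 0.464 ± 0.385 CPM, among 5 overlapping groups on 10 or fewer reads each.

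YBR296C-A had its 4 highest groups in rrp6 deletion cells and in Nab3-AID cells with auxin: deletion quiescent steady-state RNA (47.5 ± 5.25 CPM), deletion at 48 h (44.5 ± 16.1 CPM), and Nab3-AID steady-state (38.0 ± 6.19 CPM) and nascent RNA (33.6 ± 1.60 CPM). Each overlapped the next, so neighbours among these 4 do not differ beyond their spread. All 5 other deletion groups followed, down to 6.52 ± 0.762 CPM at 2 h before the shift, which overlapped the next group. The highest wild-type or control group was OsTIR-AID steady-state RNA, at 4.87 ± 3.85 CPM, and the lowest wild-type G1, at 0.0862 ± 0.122 CPM. YOL114C was led by Nab3-AID, with 107 ± 6.55 CPM in nascent and 73.6 ± 2.32 CPM in steady-state RNA. Next came the deletion in quiescent steady-state RNA at 40.0 ± 0.444 CPM, and these 3 lay clear of each other. The other 6 deletion groups followed with overlaps, from 30.7 ± 2.10 CPM at 48 h down to 13.2 ± 2.50 CPM in G1. Wild-type quiescent steady-state RNA was next at 10.6 ± 3.73 CPM, and wild-type at 2 h before the shift was the lowest, at 2.74 ± 0.256 CPM.

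Between genes, levels were compared per kb of coding length. By this measure SRL1 was the highest of the 5 in 8 of the 18 Universal Plus groups, YBR296C-A in 7 and BSC1 in 3. The lead was clear of the second gene in all 8 groups led by SRL1, but 2 of the groups led by YBR296C-A (wild-type and OsTIR-AID quiescent steady-state RNA) and 2 of those led by BSC1 (deletion and wild-type quiescent nascent RNA) overlapped with it. YBR296C-A led, for instance, in Nab3-AID nascent RNA, at 280 ± 13.4 CPM per kb, with YOL114C next at 176 ± 10.8 CPM per kb.

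The genes with the most similar pattern were found by Pearson correlation of log2 CPM over the means of these 18 groups, among 5988 genes tested in all 3 Universal Plus fits. The points share libraries and controls, and the values are descriptions. For SRL1 they were its relative SVS1 (r = 0.946) and the G1 cyclin genes CLN2 (0.941) and CLN1 (0.921). For BSC1 they were RCL1 (0.911), RPC17 (0.904) and OAC1 (0.902), and for MIP6 PRP39 (0.787), PRM5 (0.730) and TAD1 (0.730). For YBR296C-A they were the dubious reading frames YOR082C (0.948), YGL182C (0.943) and YGL199C (0.940). For YOL114C they were YJL064W (0.965), YNR003W-A (0.944) and YAL059C-A (0.944). Among the 5 themselves YBR296C-A and YOL114C were the most alike (r = 0.879), and SRL1, MIP6 and BSC1 correlated with each other at -0.216 to 0.350.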

How the data were processed

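The authors deposited tables of read counts per gene or transcript (mRNAs on the sense and the opposite strand, and a representative set of noncoding RNAs merged from published catalogues). Per the submitters' processing notes, FastQC, MultiQC, UMI-tools, STAR, SAMtools, HTSeq and deepTools were used with the sacCer3/R64 build; no versions are listed there. Each table had 46 columns for 44 samples, because 2 samples were sequenced in both batches, and the runs of a sample were summed.

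Counts were tested with edgeR 4.0.16 in R 4.3.3 (TMM on S. cerevisiae genes, filterByExpr, robust quasi-likelihood F-test, Benjamini-Hochberg over all features of a table, adjusted p under 0.05). Separate fits covered 8 auxin-treated, 8 Ovation, 8 day 8 quiescent and 20 G1 and diauxic shift libraries, with opposite-strand and noncoding counts scaled by the mRNA table. The standard error is the size of the log2 difference over the square root of F. The scripts were tested on simulated data. No comparison crossed the kits. The 5 mRNAs and the gene lists were chosen with earlier results of these data known.

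Named genes are the 5 members, RRP6 and NAB3, neighbours and related genes, noncoding RNAs within 1 kb, the 3 most similar genes per member and at most 4 genes per list. Same-numbered replicates of a genotype share a strain number in the labels. Deviations of same-strain nascent and steady-state samples correlated at 0.468 in Nab3-AID and 0.122 in OsTIR-AID cells. In the Ovation libraries they correlated at 0.432 in G1 and 0.293 in quiescence, and at day 8 at 0.131 in the deletion and 0.098 in wild-type cells. The main fits held no term for this pairing. Across genotypes a number names different strains. Alternatives for sense counts were DESeq2 1.42.0, no filter, a replicate block, the table of coding and structural features, K. lactis library sizes, 1 run in place of the sum and each library left out. Opposite-strand and noncoding counts were refitted only with no filter and with libraries left out, and noncoding counts also with K. lactis library sizes. Leaving out libraries for opposite-strand and noncoding counts, and a replicate block in the quiescent nascent deletion comparison, were added after seeing the data. A group with 1 library left was assumed to vary like the other groups. No sequence is printed, since no genome was used here.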

Additional observations from a re-analysis of the deposited data

Results flagged for a closer look

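In Nab3 depletion the change of SRL1 differed between nascent and steady-state RNA by 1.35 on the log2 scale, and in wild-type quiescence that of MIP6 by -1.03, each by the test of the difference itself.

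Other results lay on opposite sides of wild-type in different states of the rrp6 deletion, with the replicates of each group apart. These differences were not tested. On the log2 scale the extremes were -0.56 (quiescent nascent RNA) and 3.57 (G1) for SRL1, -1.26 (24 h) and 3.28 (G1) for MIP6, and -1.96 (2 h before the shift) and 2.73 (quiescent steady-state RNA) for BSC1. On the opposite strand they were -1.21 and 1.87 for SRL1, -1.53 and 1.17 for BSC1, -2.12 and 2.56 for YBR296C-A (TYC1), and -1.14 and 0.97 for YOL114C (PTH4). Among the noncoding RNAs they were -0.95 and 1.25 for CUT3479, -1.23 and 1.42 for SUT048/CUT1019, and -2.01 and 2.67 for SUT024/CUT1287.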

How the results depend on the processing

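With 2 replicates a group and down to 0 reads at a locus, depth limits BSC1 after the shift, YBR296C-A in wild-type cells in G1 and around the shift, and all 5 in OsTIR-AID steady-state RNA. Of 30 calls of the 5 mRNAs, 19 were kept under every alternative fitted to them and 22 under all but K. lactis scaling. That scaling was not run for comparisons that involve both RNA fractions. Opposite-strand calls met only the fits with no filter or with a library left out, and 14 of 24 were kept. Their response to K. lactis scaling was not tested. Noncoding calls met the same fits and K. lactis scaling, and 14 of 28 were kept, or 21 without K. lactis scaling. The replicate block changed no call: the counts of members called stayed at 3, 4 and 1 in the Nab3 comparisons. The block was a single term by replicate number, shared by both genotypes, although a number names different strains across genotypes. A block by strain within each genotype was not fitted. Same-numbered deletion and wild-type libraries nevertheless deviated together in quiescent nascent RNA (correlation 0.643) and G1 (0.157). A block by number in the former, added after seeing the data, took the genes called from 75 to 183, or 940 in a fit of its 4 libraries alone.

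K. lactis scaling turned 13 values: MIP6 in Nab3 nascent RNA to 0.40, at 24 h to -0.041 and at 48 h to -1.15, YOL114C (PTH4) at 48 h to -0.97 and in quiescent nascent RNA to -2.39, and CUT3479 in Nab3 nascent RNA to 0.02. In wild-type quiescent nascent RNA it turned CUT3479 to -1.12, NUT0328 to -4.01, SUT048 to -4.015, SUT024 to -2.26, NUT0856 to -2.61, NUT1391 to -2.17 and NUT1392 to -2.29. The medians of all genes moved by -0.95, -1.42 and -1.38 in the steps to 2, 24 and 48 h, and by 0.10 or less in the step from G1, and the members called at 48 h went from 1 to 3. Genes called higher and lower went from 1986 and 1882 to 4941 and 70 in Nab3 steady-state RNA, from 2211 and 2079 to 3692 and 113 in Nab3 nascent RNA, from 2190 and 2266 to 879 and 1613 in quiescent steady-state RNA, from 1732 and 1977 to 59 and 5541 in quiescent nascent RNA, and over the steps of the shift from 1647 and 1646 to 1737 and 1122, from 2527 and 2268 to 1027 and 3983, from 2066 and 1659 to 165 and 5253, and from 2022 and 2382 to 177 and 5001. K. lactis values of YBR296C-A were not obtained for the Ovation libraries. The cause of these shifts was not tested.

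DESeq2 called 2 rather than 1 of the 5 between nascent and steady-state RNA in G1, adding SRL1 at -1.42. Leaving out 1 library gave 2 to 4 calls in Nab3 nascent RNA, 0 to 1 in its difference between fractions, 0 to 1 in the wild-type difference between fractions, and 0 to 1 between nascent and steady-state RNA in G1.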
